A study of Mus musculus with 45 samples.

Results

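Messenger RNA on polysomes was compared between Ter119+ fetal liver cells labelled VavCre Rpl5flox/+ (3 libraries) and Ter119+ cells labelled Rpl5flox/+ (2 libraries, all there were), which are 5 of the 45 libraries of the series. The members were chosen by their titles alone, and the comparison ran across all genes of the deposited table. The fetuses were at E15.5, with mothers heterozygous for VavCre and fathers homozygous for a floxed allele, so that each of them carried 1 floxed allele and 1 other, and those with VavCre also carried the recombinase. Cells were held in 25 µg/mL emetine, an inhibitor of elongation, for 15 min, Kit+ cells were removed on magnetic beads, and Ter119+ cells were taken from the remainder and pooled by genotype in equal number. Lysates were run on a 10 to 50% sucrose gradient, and poly(A) RNA of the polysome and cytoplasm fractions was sequenced. The same crosses with a floxed Rps19 allele gave 3 libraries labelled VavCre Rps19flox/+ and 3 labelled Rps19flox/+ from Ter119+ polysomes, which enter the fit. No group carries VavCre without a floxed allele, so the recombinase and the deletion cannot be told apart, and how many fetuses a pool held is not given in the labels.

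RPL5 is a protein of the large ribosomal subunit that joins RPL11 and the 5S ribosomal RNA in a particle, which is built into the subunit or, when unused, binds and restrains MDM2, the ligase that removes p53. Loss of 1 copy of RPL5 or RPS19 causes Diamond-Blackfan anemia in people, in which red cell precursors are few. The Vav promoter drives Cre in blood cells, TER119 is carried by red cell precursors from the proerythroblast stage on, and an mRNA on polysomes is held by several ribosomes at the time of lysis. Polysome libraries of this kind report the amount of an mRNA in the fraction, which moves both with the amount in the cell and with ribosome loading.

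The 3 libraries labelled VavCre Rpl5flox/+ held 4800661, 19072651 and 1020907 reads and the 2 labelled Rpl5flox/+ held 15370029 and 39759214 reads. Replicate 3 of the first group stood apart. It held reads of 4109 genes, against 7806 and 11531 in the others of its group and 10838 and 11349 in the Rpl5flox/+ libraries, and its log2 values correlated with those of replicates 1 and 2 at 0.638 and 0.672, against 0.847 between those 2 and 0.958 between the Rpl5flox/+ libraries. A single read was worth 30.5 normalized counts there, and 35.1% of its reads fell on Lars2, against 10.3 and 1.37% in replicates 1 and 2 and 4.47 and 0.165% in the Rpl5flox/+ libraries. Several results that rest on it are given with and without it. The erythroid markers Slc4a1, Alas2, Hba-a1, Hbb-bt, Klf1 and Gata1 had reads in all 5 libraries, and globin genes took 44.4, 57.8 and 28.0% of the reads in the VavCre-labelled libraries and 70.2 and 82.2% in the Rpl5flox/+ libraries.

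**Figure D1:**
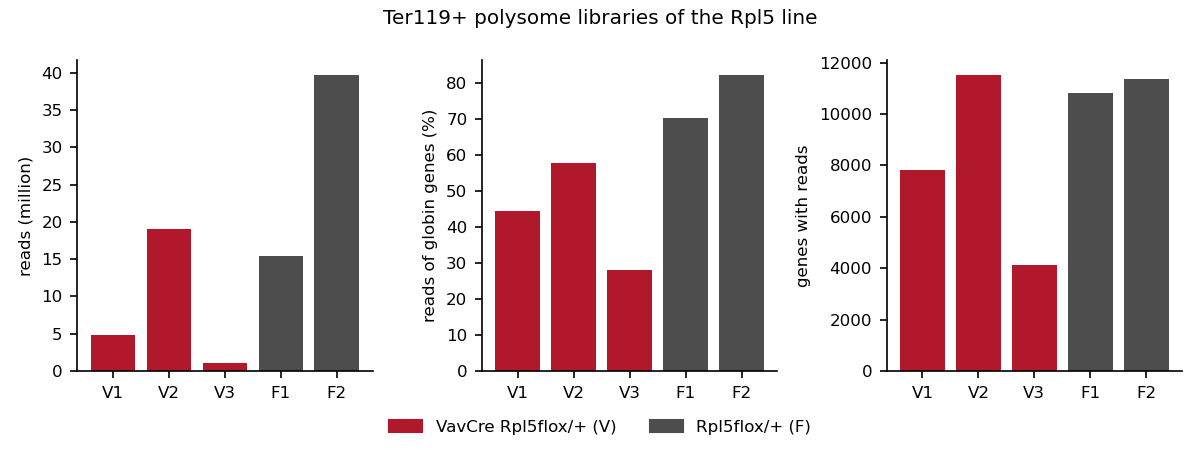
Number of reads, share of reads on globin genes in percent and number of genes with reads for each Ter119+ polysome library of the Rpl5 line, with the libraries labelled VavCre Rpl5flox/+ (V1 to V3) left of those labelled Rpl5flox/+ (F1 and F2). Library V3 has the fewest reads and genes (4109), and the globin share is at most 57.8% in the V libraries and at least 70.2% in the F libraries.

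The mRNA of the targeted gene was not lower under the VavCre label. Rpl5 lies on chromosome 5, 107900508 to 107909005 of GRCm38.p6, the build of all positions given here, and had 547, 409.6 and 6334 normalized counts in the libraries labelled VavCre Rpl5flox/+, against 110.2 and 226 in those labelled Rpl5flox/+. All 3 VavCre-labelled values lie above both others, the third by far the most, and the change of 2.73 ± 1.01 did not pass the test (adjusted p = 0.096, and 1.49 with adjusted p = 0.099 without replicate 3). In the cytoplasm of these genotypes Rpl5 was also higher, by 0.44 ± 0.16 (adjusted p = 0.0278). The 48 large-subunit ribosomal protein genes had a median change of 0.93 there and of 0.91 on polysomes. The groups are therefore named throughout as labelled, and each direction below is that of the labels. Which part of the gene the floxed allele removes is not given in the labels, Rpl5 overlaps Dipk1a, and processed pseudogenes of ribosomal protein genes can share their reads. Here and below a change is the log2 value of VavCre Rpl5flox/+ minus Rpl5flox/+ given with its standard error from limma, and adjusted p-values are those of limma over all genes tested. Nothing says that the libraries of a group came from separate litters, so their p-values reflect spread between pools alone, and an exact permutation test of 3 libraries against 2 cannot give a two-sided p under 0.2.

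Of 10614 genes tested, 1406 passed an adjusted p of 0.05, with 314 higher (2.96%) and 1092 lower (10.3%) in the VavCre-labelled libraries. Without replicate 3 the counts were 578 higher (5.43%) and 1627 lower (15.3%) of 10649. The median change of all genes was -1.004, which moved to -0.43 without replicate 3 and to 0.17 when the libraries were quantile normalized. Quantile normalization also moved the balance, to 909 higher and 1137 lower (44.4% of calls higher, against 22.3%). Over genes with reads in every Ter119+ polysome library it was 562 higher and 786 lower of 3229, with a median of -0.13. The medians of gene groups below are therefore to be read beside the median of all genes, -1.004. Those of the heat shock and immediate early list (-1.05) and of the erythroid translation regulators (-0.98) lie near it. Counts of list members in other fits are to be read beside all genes in the same fit. These were 231 higher and 1095 lower of 10505 without VavCre replicate 1, and 394 and 2013 of 10539 without VavCre replicate 2. Fewer of all genes passed when either Rpl5flox/+ library was left out. Among genes named below, Alas2, Apoa2, Ccnd3, Ebna1bp2, Eif2ak1, Hmox2, Hspe1, Ndufa2, Nusap1, Phospho1, Ppp1r15a, Prc1, Tmod1, Uros and Xpo7 each overlap another protein-coding gene in the annotation, and without a stated strand setting their reads may include those of the neighbour.

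Messenger RNAs of the red cell program fell. Of 24 genes of the red cell membrane and its skeleton 23 fell and none rose (median -3.22), and without replicate 3 all 24 fell. Slc4a1 (chromosome 11, 102348820 to 102365281), which encodes the anion exchanger band 3, had 18703, 33681 and 20983 normalized counts in the VavCre-labelled libraries, against 358740 and 450120 in the Rpl5flox/+ libraries, a change of -4.09 ± 0.30 (adjusted p = 5.11e-05). The 2 groups lie more than 10-fold apart, with no overlap. Add1 (alpha-adducin) and Dmtn (dematin), which tie the spectrin skeleton to actin, also fell. Dmtn had 1451, 1653 and 639.5 normalized counts with VavCre and 23320 and 31991 without (-4.55 ± 0.42, adjusted p = 6.14e-05), and Add1 had 735, 1653 and 670.0 with VavCre and 17630 and 24961 without (-4.47 ± 0.41, adjusted p = 6.14e-05). The 1 gene of the group that did not pass with all libraries was Tmod1 (tropomodulin), which had 1200, 1272 and 0 normalized counts, against 10751 and 5837 (-5.12 ± 1.61, adjusted p = 0.0553). In these bulk pools, fewer cells of a type and less RNA per cell cannot be told apart.

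Heme synthesis and iron handling followed with 16 of 25 genes lower and none higher (median -2.63, and 16 again without replicate 3). Summed normalized counts of the 25 were 440830, 601180 and 313550 with VavCre, against 1361300 and 1698000 without. As a share of reads the groups overlapped, at 1.46, 1.91 and 1.01% with VavCre and 1.85 and 1.36% without. Uros, which closes the porphyrin ring, had 823, 1049 and 548 normalized counts in the VavCre-labelled libraries, against 9630 and 10177 in the Rpl5flox/+ libraries (-3.64 ± 0.41, adjusted p = 0.00017). Cpox had 6232, 5894 and 5543, against 42469 and 35010 (-2.71 ± 0.25), and Fech, which puts iron into the ring, had 8952, 13923 and 9715, against 98211 and 120310 (-3.35 ± 0.31). For all 3 genes the groups do not overlap, as for 32.7% of all genes tested with the VavCre-labelled group lower. Libraries of a group differ by less than the groups do. Alas2, the erythroid form of the first and rate-limiting enzyme, had 60084, 92064 and 29053 normalized counts, against 264080 and 429300 (-2.63 ± 0.44, adjusted p = 0.00182). The mitochondrial iron importer Slc25a37 changed by -4.42 on this scale and the transferrin receptor Tfrc by -2.67. Alad, which makes porphobilinogen, was at -0.11 (adjusted p = 0.874), and the heme oxygenases Hmox1 and Hmox2 were at 0.52 and 0.92, none of which passed.

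Erythroid regulators showed the same direction in 15 of 24 genes, with none higher (median -2.61). Klf1 (chromosome 8, 84901982 to 84905291), the factor that drives adult beta-globin and much of the terminal program, had 1702, 2656 and 1218 normalized counts with VavCre, against 16144 and 23298 without (-3.45 ± 0.35, adjusted p = 0.000104). All 3 VavCre-labelled values are far below both others. Gata1, the master factor of the lineage, had 3210, 3774 and 2010, against 10612 and 14251 (-2.08 ± 0.32, adjusted p = 0.001). Lmo2, the bridge of the GATA1 and TAL1 complex, changed by -3.94 ± 0.41, and the late erythroid factors E2f2 and E2f4 by -2.82 ± 0.31 and -3.49 ± 0.38. Of 27 genes of late maturation and autophagy 24 fell (26 without replicate 3). Trim10, which is needed for terminal differentiation, had 2067, 3631 and 1523 normalized counts in the VavCre-labelled libraries, against 70769 and 76553 (-5.02 ± 0.48). Xpo7, a nuclear exporter of enucleating cells, changed by -3.72 ± 0.30, Car2 (carbonic anhydrase) by -3.28 ± 0.37 and Ube2l6 by -4.38 ± 0.51.

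Adult globins were lower and 1 embryonic globin was higher. The adult beta-globin Hbb-bs had 2085500, 3138500 and 1003600 normalized counts with VavCre, against 16424000 and 26610000 without (-3.48 ± 0.42, adjusted p = 0.000239), and the adult alpha-globin Hba-a2 had 4577600, 5756800 and 3164400, against 14631000 and 30662000 (-2.28 ± 0.33). The embryonic alpha-like globin Hba-x went the other way, at 62516, 90811 and 18059 normalized counts, against 12247 and 6380 (2.40 ± 0.62, adjusted p = 0.0245), with no overlap. Of 9 globin genes 5 fell and Hba-x rose, and the embryonic Hbb-y was at 2.04 ± 0.66 (adjusted p = 0.0614). No globin rose when any 1 of the other 4 libraries was left out. Without replicate 3, 2 globins passed lower (Hbb-bs and Hbq1b) and 2 higher (Hba-x and Hbb-y), with adjusted p-values of 0.048 for Hbb-bs, 0.245 for Hba-a2 and 0.00201 for Hbb-y. Under quantile normalization Hbb-bs was at -0.91, Hba-a2 at -0.15 and Hba-a1, which changed by -2.06 in the fit on deposited values, at 0.27. That scaling gives every library the same set of values, and its part in these smaller changes was not tested. The pairs Hba-a1 and Hba-a2, and Hbb-bs and Hbb-bt, are near-identical copies whose reads can be split between them in counting.

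**Figure D2:**
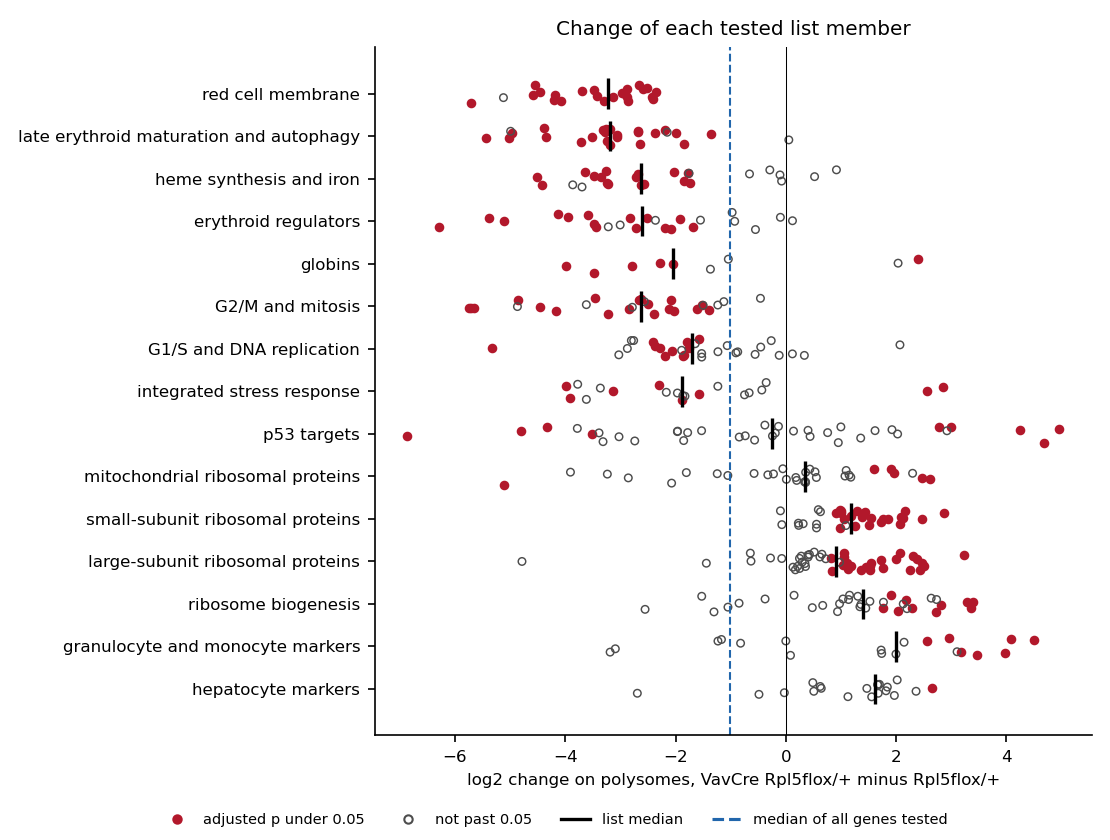
Log2 change on polysomes (VavCre Rpl5flox/+ minus Rpl5flox/+) of each tested member of 15 gene lists, filled red where the adjusted p is under 0.05 and open where it is not, with the median of each list (black bar) and of all genes tested (dashed line, -1.004). The erythroid lists, both cell cycle lists and the integrated stress response lie left of the dashed line by their medians, while both ribosomal protein lists, ribosome biogenesis and the granulocyte list lie right of 0.

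Short stretches of promoters are shown for 3 groups that moved, each around a motif named for that group in textbooks. They are from RefSeq (GRCm38.p6), which gave a window from -250 to 50 bases around the start for 8526 of the genes tested, and each motif was searched on both strands unless stated. In the sequences below capitals mark the motif, and each stretch reads 5′ to 3′ along the gene's strand. Genes of the red cell membrane were searched for AGATAA, a form of the site that GATA factors bind, which 5 of 16 windows held (31.2%), against 7.64% of all. The 3 called genes with the smallest p that held it, all of which fell, were Rhd, which carries the Rh blood group, Tmcc2, a membrane protein of late red cells, and Kel, the Kell blood group protease.
Rhd (chr4:134864481-134864510, plus strand): cccggcagcctgAGATAAgacctttggcgg
Tmcc2 (chr1:132367964-132367993, minus strand): actgggccctccTTATCTcttggaaccttc
Kel (chr6:41704364-41704393, minus strand): cctgagaaactaAGATAAaagaggaggtga

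For the genes of G2/M and mitosis the motif was TTTGAA, the cell cycle genes homology region, at which the DREAM and MuvB complexes act. It stood in 18 of 23 windows (78.3%), against 14.3% of all. Ube2c, Prc1 and Cenpa, whose proteins act in the destruction of mitotic cyclins, the spindle midzone and the centromere, are shown.
Ube2c (chr2:164769888-164769917, plus strand): ggagggttgcaaTTCAAAcgcgggcggcgg
Prc1 (chr7:80294434-80294463, plus strand): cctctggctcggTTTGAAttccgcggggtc
Cenpa (chr5:30666890-30666919, plus strand): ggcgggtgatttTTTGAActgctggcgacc

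Ribosomal protein mRNAs begin with a run of pyrimidines, the TOP motif, which ties their translation to growth signals. CTTTC within 20 bases of the start, on the gene's strand alone, stood in 18 of 60 windows (30%), against 5.76% of all in the same 40 bases. Rpl13a, Rpl27a and Fau, which encodes the small-subunit protein RPS30 fused to a ubiquitin-like one, are shown, all of which rose. In them CTTTC lay 9, 10 and 6 bases past the annotated start, so it is not shown to begin the mRNA.
Rpl13a (chr7:45128720-45128749, minus strand): acaagacctcctcCTTTCccaggcggctgc
Rpl27a (chr7:109519192-109519221, plus strand): tcctcccttttccCTTTCtgccaccgccat
Fau (chr19:6057940-6057969, plus strand): cccacttcttcctCTTTCttgactccatct
A match describes the letters of a window and is no evidence of binding.

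Ribosomal protein mRNAs rose in both subunits. Of 33 genes of the small subunit 23 rose and none fell (median 1.19, and 26 rose without replicate 3), and of 48 of the large subunit 25 rose and none fell (median 0.91). Without Rpl5flox/+ replicate 1, 15 small-subunit genes passed, all higher. Rps28 had 96729, 64787 and 67029 normalized counts in the VavCre-labelled libraries, against 9563 and 10977 in the Rpl5flox/+ libraries (2.87 ± 0.27, adjusted p = 6.14e-05). Rps21 had 119520, 78918 and 84905, against 15866 and 17608 (2.47 ± 0.25). The groups are far apart in both genes, and replicate 3 lies within the range of the other VavCre-labelled libraries. Rps19, the gene targeted in the other line, had 62384, 51068 and 53477 with VavCre, against 15741 and 22626 (1.55 ± 0.22, adjusted p = 0.000747). In the large subunit Rplp1, a protein of the stalk that recruits elongation factors, had 249760, 167030 and 178950, against 32494 and 39984 (2.44 ± 0.22, adjusted p = 6.14e-05), and Rpl37a and Rpl27a changed by 2.25 ± 0.27 and 2.07 ± 0.26. Rpl38 had the highest change of the 48, at 3.24 ± 0.47. Rpl11, the partner of RPL5 in the 5S particle, had 24620, 23174 and 12547 normalized counts, against 14979 and 16808, with overlapping groups (0.28 ± 0.31, adjusted p = 0.588). The lowest of the 48, Rpl10, was at -4.79 ± 1.52 (adjusted p = 0.0579), and without replicate 3 it was at -2.80 (adjusted p = 0.032), 1 of 2 large-subunit genes that then fell beside 28 that rose.

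Proteins that build ribosomes moved the same way, with 10 of 34 genes higher and none lower (median 1.41). The count was 20 higher under quantile normalization, and 16 higher and 1 lower without VavCre replicate 3. It was smaller without either 1 of the Rpl5flox/+ libraries, as over all genes, in fits where the lone library is assumed to vary like the others. Without Rpl5flox/+ replicate 1 and 2 the list median was 1.49 and 1.51, beside -0.97 and -1.09 over all genes. Ncl (nucleolin), an abundant nucleolar protein, had 33026, 25011 and 28992 normalized counts with VavCre and 3930 and 2219 without (3.28 ± 0.39, adjusted p = 0.000239). Fbl (fibrillarin), which methylates ribosomal RNA, had 16573, 9990 and 12912 with VavCre, against 1122 and 1365 (3.36 ± 0.53, adjusted p = 0.00133). The 2 groups do not overlap for either gene, as for 11.2% of all genes tested with the VavCre-labelled group higher. Pes1, a factor of large-subunit processing, and Ebna1bp2 changed by 2.04 ± 0.43 and 1.91 ± 0.40. Npm1 (nucleophosmin), which was listed with translation factors and other TOP mRNAs, had 24432, 22140 and 16932, against 3039 and 1500 (3.28 ± 0.38, adjusted p = 0.00019), and Eef1b2, a subunit of the exchange factor of eEF1A, changed by 1.67 ± 0.24. In that list 6 of 20 rose and none fell (median 0.39). Fewer rose without Rpl5flox/+ replicate 1 and 2, as over all genes, with list medians of 0.36 and 0.31. No gene of the 9 tested partners of the 5S particle and the Rps19 chaperone passed (median 0.28), although 2 rose under quantile normalization.

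**Figure D3:**
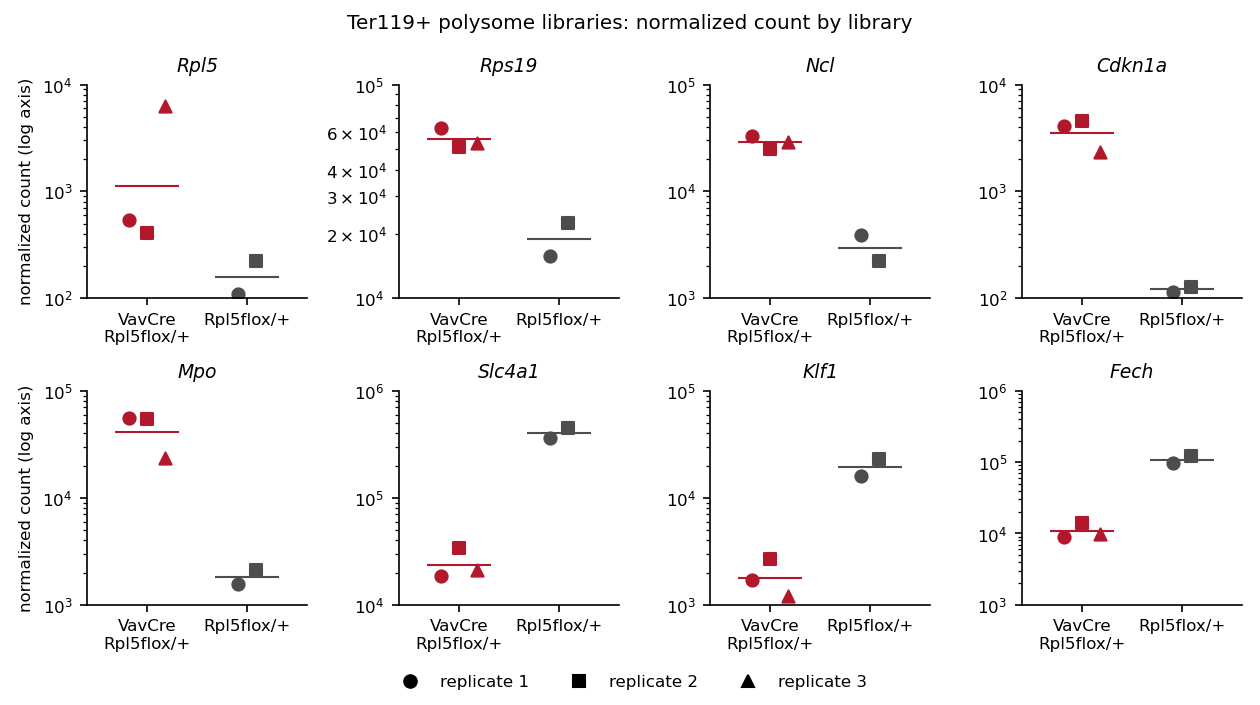
Normalized counts (log axis) of 8 genes in each Ter119+ polysome library, libraries labelled VavCre Rpl5flox/+ in red on the left and Rpl5flox/+ in grey on the right, with the replicate as the shape of the point and the geometric mean as a line. Groups do not overlap in any of these 8 chosen genes. Of all genes tested 11.2% do not overlap with the VavCre-labelled group higher and 32.7% with it lower. Replicate 3 of VavCre Rpl5flox/+ stands away from its group for Rpl5 (6334) but lies near its group for Rps19 and Slc4a1.

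Targets of p53 included genes that rose and genes that fell. Of 37 tested 5 rose and 4 fell (5 and 7 without replicate 3, and 2 and 1 without either Rpl5flox/+ library), beside 2.96% higher and 10.3% lower of all genes, so that the share that fell was near that of all genes. The list median was -0.24, which turned to 0.65 without replicate 3 and 0.95 under quantile normalization. The genes that rose were Cdkn1a, Phlda3, Zmat3, Aen and Ccng1. Cdkn1a (chromosome 17, 29090979 to 29100722), the cell cycle inhibitor p21, had 4052, 4528 and 2314 normalized counts in the VavCre-labelled libraries, against 115 and 129 in the Rpl5flox/+ libraries (4.68 ± 0.56, adjusted p = 0.000231), so that its lowest VavCre-labelled library was above its highest other one by more than 10-fold. Zmat3, an RNA-binding protein that p53 induces, had 295, 479 and 487, against 14.4 and 6.28 (4.25 ± 0.86, adjusted p = 0.00631). Phlda3, an inhibitor of AKT, had 521, 692 and 548, against 0 and 34.5 (4.96 ± 1.14, adjusted p = 0.0139), and Ccng1 (cyclin G1) had 760.2, 804 and 1523, against 168 and 100.4 (2.77 ± 0.63, adjusted p = 0.0126). Those that fell were Btg2, an inhibitor of proliferation, at 647, 1041 and 457 normalized counts, against 8743 and 7121 (-3.52 ± 0.44, adjusted p = 0.000293), together with Ptp4a3, Sesn1 and Ckap2.

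No change of p53 or of its ligase was detectable on polysomes at this depth. Trp53 had 685, 581 and 0 normalized counts, against 1007 and 926 (-2.74 ± 1.46, adjusted p = 0.243), and Mdm2, the ligase that p53 induces, had 100.5, 589.7 and 0, against 705 and 587 (-3.03 ± 1.33, adjusted p = 0.159). Both were at 0 reads in VavCre replicate 3, where 3 reads stand for 91.4 normalized counts and where 28 of the 40 listed p53 targets had no read. Without that library Trp53 was at -0.60 and Mdm2 at -1.32, neither of which passed.

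Cell cycle mRNAs were lower. Of 27 genes of G2/M and mitosis 19 fell and none rose (median -2.63, and 23 fell without replicate 3). Without Rpl5flox/+ replicate 1 and 2 the list median was -2.27 and -2.85, beside -0.97 and -1.09 over all genes. Fewer of the 27 passed in those fits, as of all genes. Ube2c, which loads ubiquitin for the anaphase-promoting complex, had 6929, 9174 and 4964 normalized counts with VavCre, against 67802 and 83997 without (-3.47 ± 0.30, adjusted p = 6.14e-05). The spindle proteins Nusap1 and Prc1 changed by -3.23 ± 0.47 and -2.49 ± 0.44, and Birc5 (survivin) changed by -1.40 ± 0.26. In G1/S and DNA replication 11 of 30 fell and none rose (median -1.70), and 7 fell and 1 rose under quantile normalization. Without Rpl5flox/+ replicate 1 and 2 the list median was -1.525 and -1.947, again with fewer genes passing. The share of reads of these 30 genes overlapped, at 0.147, 0.154 and 0.128% with VavCre and 0.195 and 0.0907% without. Rrm2, the subunit of ribonucleotide reductase made in S phase, had 4674, 4278 and 3654, against 24264 and 19338 (-2.37 ± 0.25, adjusted p = 0.00011). Ccnd3, the cyclin that sets the number of divisions of red cell precursors, had 5861, 7791 and 4903, against 28381 and 27296 (-2.19 ± 0.33), and the replication clamp Pcna changed by -1.86 ± 0.31. All 3 genes had groups that do not overlap, as did 32.7% of all genes tested with the VavCre-labelled group lower.

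Markers of granulocytes and monocytes were higher, in 7 of 19 genes, with none lower (median 2.00, and 8 higher without replicate 3). Over all genes 2.96% were higher, and 5.43% without replicate 3. Without VavCre replicate 1 there were 4, and without either 1 of the Rpl5flox/+ libraries 3. Mpo (chromosome 11, 87793784 to 87804412), myeloperoxidase of early granules, had 56064, 54185 and 23449 normalized counts in the VavCre-labelled libraries, against 1558 and 2115 (4.50 ± 0.51, adjusted p = 0.000183). Prtn3, a granule protease, had 23873, 23804 and 8832, against 863 and 1149 (4.08 ± 0.53), and the calprotectin genes S100a8 and S100a9, of later neutrophils, changed by 3.46 ± 0.55 and 2.96 ± 0.70. The summed level of the 20 markers was 280840, 209350 and 105860 normalized counts with VavCre and 15478 and 26242 without, which is 0.931, 0.665 and 0.340% of the reads, against 0.0210 and 0.0210%. Hepatocyte markers were also higher in sum, at 53877, 49512 and 185130, against 25271 and 33808. Only 1 of 20 passed, Apoa2 (2.65 ± 0.69, adjusted p = 0.0252), which is near the share of all genes that rose. The median of those 20 was 1.61, and 0.93 without VavCre replicate 3, and under quantile normalization 5 of them rose, as did 909 of all 10614 genes. Macrophage markers summed to 8607, 6852 and 8314, against 5009 and 7864, which is 0.0285, 0.0217 and 0.0267% of the reads, against 0.00680 and 0.00630%, with none of 17 past the threshold. None of the tested markers of B-lymphoid, megakaryocyte or endothelial cells passed. No mast cell and basophil marker of 7 passed with all libraries, but 2 rose without VavCre replicate 3 (median 2.96), 3 with array weights and 4 under quantile normalization, and all 7 were higher in the cytoplasm. Over all 10614 genes 624 rose with array weights, and in the cytoplasm 35.3% of 10939 rose. The 9 such markers in the table summed to 2859, 2813 and 579 normalized counts on polysomes with VavCre, against 475 and 361 without. All 11 B-lymphoid markers were at 0 in VavCre replicate 3. The part of these cells in the fall of the erythroid genes and in the rise of the ribosomal protein genes was not tested.

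Stress genes included ones that fell and ones that rose. Of 20 genes of the integrated stress response 6 fell and 2 rose, beside 10.3% lower and 2.96% higher of all genes. Those 2 were the only ones above 0, and the list median was -1.88, against -1.004 over all genes. The number that fell was 7, 9 and 8 without VavCre replicate 1, 2 and 3. It did not rise without either Rpl5flox/+ library, with list medians of -1.51 and -2.20. Atf4, its central factor, had 6213, 6212 and 5421 normalized counts with VavCre and 26733 and 17963 without (-1.88 ± 0.27, adjusted p = 0.000632), and Ppp1r15a (GADD34), which resets eIF2 phosphorylation, had 8110, 10173 and 2375, against 72825 and 105820 (-3.91 ± 0.48, adjusted p = 0.000293). Slc7a5 and Slc3a2, the chains of a transporter of large amino acids, changed by -3.98 ± 0.59 and -3.14 ± 0.45. The sensor kinase Eif2ak1 (HRI), which is activated when heme is short, was listed with erythroid translation regulators, 5 of 22 of which fell (10 without VavCre replicate 3, and 1 without either Rpl5flox/+ library), and had 2161, 3712 and 3594, against 28218 and 33240 (-3.31 ± 0.31, adjusted p = 6.14e-05). Bag1, whose translation depends on internal entry in erythroblasts, had 4046, 5386 and 3685 normalized counts, against 5901 and 4698 (-0.29 ± 0.32, adjusted p = 0.596, and 0.52 under quantile normalization).

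Chaperones divided within the heat shock and immediate early list, in which 4 of 19 rose and 3 fell (5 fell without VavCre replicate 2, and 2 rose and 2 fell without Rpl5flox/+ replicate 2). Hsp90aa1, the inducible HSP90, had 81067, 32290 and 163050 normalized counts, against 4904 and 3483 (4.18 ± 0.61, adjusted p = 0.000806), and the mitochondrial chaperonin Hspe1 had 25406, 16651 and 24637, against 1884 and 1826 (3.55 ± 0.39). Dnajb1, a partner of HSP70, was lower, at 0, 253 and 0, against 3394 and 3144 (-7.04 ± 1.22), as was the phosphatase Dusp1 (-7.11 ± 1.05). With 1 library left out Dnajb1 ranged from -8.76 to -6.19 and Dusp1 from -8.03 to -5.72. In oxidative phosphorylation 6 of 25 rose, Ndufa2 by 1.66 and Cox5a by 1.67 among them, and Cox8a changed by -1.22. That count of 6 was 12, with none lower, under quantile normalization, 1 without VavCre replicate 1, 0 without Rpl5flox/+ replicate 1 and 1 without Rpl5flox/+ replicate 2. Of all genes tested 2.96% rose and 10.3% fell, beside which these counts are to be read. In the fit without VavCre replicate 2, 394 of 10539 genes rose and 2013 fell. It was 231 and 1095 of 10505 without VavCre replicate 1, and fewer of all genes passed without either Rpl5flox/+ library. Of 13 mitochondrially encoded mRNAs 1 fell, mt-Co1, at 16083, 16970 and 26038, against 181880 and 62538 (-2.47 ± 0.50, adjusted p = 0.00649). Among 32 mitochondrial ribosomal proteins 5 rose and 1 fell, led by Mrpl12 (2.48 ± 0.38) and Mrps16 (2.61 ± 0.47), with 2, 1 and 2 higher without VavCre replicate 1 and Rpl5flox/+ replicates 1 and 2, and 5 lower without VavCre replicate 2. Proteasome genes rose in 4 and fell in 2 of 32, with the beta subunit Psmb3 at 2.28 ± 0.42 and the activator Psme3 at -4.18 ± 0.55, and 2, 1 and 2 rose without VavCre replicate 1 and Rpl5flox/+ replicates 1 and 2. Under quantile normalization 10 proteasome genes rose and 1 fell. In that setting 909 of all 10614 genes rose and 1137 fell, beside which the 12 in oxidative phosphorylation also stand.

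The largest single changes among called genes whose groups do not overlap lay outside most of these groups. Psmb10, a subunit of the immunoproteasome, had 9285, 4892 and 6456 normalized counts in the VavCre-labelled libraries, against 95.9 and 204 (5.42 ± 0.63, adjusted p = 0.000202), and Bst2 (tetherin), the 1 interferon response gene of 14 that passed, had 5591, 3307 and 1705, against 100.7 and 126 (4.64 ± 0.75). Mgmt, which repairs alkylated guanine, had 817, 859 and 1705, against 4.79 and 28.2 (5.36 ± 1.06), and Sox4 had 295, 211 and 487, against 9.59 and 0 (4.66 ± 1.09). Exosc6, of the RNA exosome, had 1137, 715 and 1675, against no reads in either Rpl5flox/+ library, which makes it at least 98.8-fold higher with 3 reads per library as the floor (adjusted p = 0.00774).

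On the lower side several genes had reads in 1 VavCre-labelled library alone. Rab43, a trafficking GTPase, had 0, 172 and 0 normalized counts, against 6351 and 8319 (-8.37 ± 1.14, adjusted p = 0.000513), and Isg20, a 3′ exonuclease, had 0, 99.1 and 0, against 5996 and 5652 (-8.29 ± 1.02, adjusted p = 0.000271). Atg9a, the lipid scramblase of autophagy, had 0, 62.8 and 0, against 2627 and 4845 (-7.77 ± 1.01), and Dck (deoxycytidine kinase) had 0, 168 and 0, against 4966 and 3678 (-7.61 ± 1.14). The library with reads was in each case the deepest of the group, and all 4 remained past the threshold without replicate 3, at -7.60, -7.63, -7.21 and -6.85. Phospho1, a phosphatase of phospholipid head groups, had 339, 793 and 0, against 15439 and 22237 (-7.16 ± 1.41). With 1 library left out its change ranged from -8.483 to -5.115. Tinagl1 and Sp2 changed by -7.63 ± 1.04 and -7.29 ± 1.10. Replicate 1 of the VavCre-labelled group had no reads for 27.4% and replicate 3 for 70.6% of the genes with a mean of 50 to 500, against 2.20 and 1.20% in the Rpl5flox/+ libraries, so that depth moved with these falls, and its part in them was not tested.

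Cytoplasmic RNA of the same genotypes, 3 libraries each, was set beside the polysomes to ask whether the changes were already there before loading. Depth was closer between those groups, at 50020307 to 53600600 reads in the VavCre-labelled libraries and 53952635 to 58803482 reads in the Rpl5flox/+ libraries, and 3865 (35.3%) of 10939 genes rose and 3295 (30.1%) fell. Slc4a1 was at -3.01 ± 0.30 in the cytoplasm, against -4.09 ± 0.30 on polysomes, Klf1 at -2.19 ± 0.15, against -3.45 ± 0.35, and Fech at -2.34 ± 0.27, against -3.35 ± 0.31. All 24 genes of the red cell membrane fell in the cytoplasm (median -2.32), as did 18 of 25 of heme and iron and 25 of 27 of G2/M and mitosis. In the small subunit 31 of 33 rose (median 1.04) and in the large subunit 44 of 48 (median 0.93). Rps27 was at -1.46 ± 0.68 in the cytoplasm (adjusted p = 0.0744) and at 1.73 ± 0.28 on polysomes, where the difference did not pass (adjusted p = 0.385), and its close copy Rps27l can share its reads. Cdkn1a was at 5.72 ± 0.13 and Mpo at 3.09 ± 0.30, and Hba-x rose in the cytoplasm too (1.94 ± 0.45). The p53 list there had 25 of 38 genes higher and 7 lower, with a median of 1.40. The mRNA of Trp53 was higher in the cytoplasm by 1.04 ± 0.12 (adjusted p = 4.4e-06), and that of Mdm2 was at 0.30 ± 0.16 (adjusted p = 0.118).

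**Figure D4:**
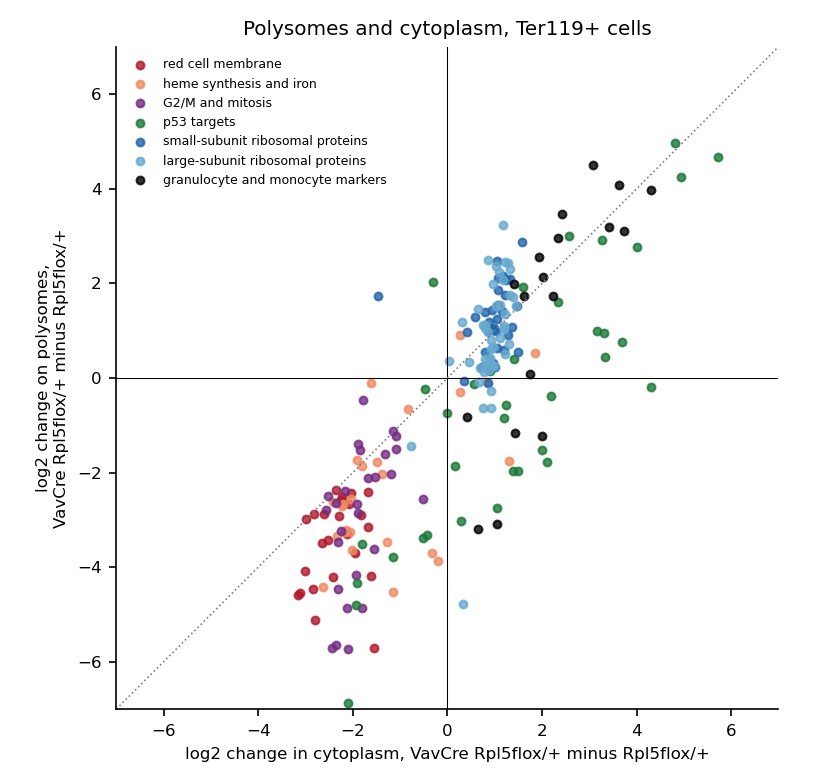
Log2 change on polysomes (vertical) against log2 change in the cytoplasm (horizontal), both VavCre Rpl5flox/+ minus Rpl5flox/+ in Ter119+ cells, for the tested members of 7 gene lists, with equal change on the dotted line. All 24 red cell membrane and 27 G2/M genes are negative on both axes, 30 of 33 small-subunit and 42 of 48 large-subunit genes are positive on both, and 31 of 36 p53 targets lie below the line, as do 78.3% of all genes.

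The difference itself was tested on the polysome value minus the cytoplasm value of the library with the same genotype and batch label, which are taken here to be fractions of 1 pool, as the labels do not state. Of 10217 genes 1 passed (0.00979%), Gm49342, and 1315 had an unadjusted p under 0.05. For the erythroid and ribosomal genes named above no difference was called, with Slc4a1 at -0.75 ± 0.69 (adjusted p = 0.529), Klf1 at -1.09 ± 0.61 (adjusted p = 0.397), Rps19 at 0.37 ± 0.33 (adjusted p = 0.513) and Cdkn1a at -1.05 ± 0.61 (adjusted p = 0.4). A p-value above the threshold does not show that the 2 changes were equal. In simulated data this test recovered 0, 4.8 and 32.8% of true log2 changes of 1, 2 and 4. Without VavCre replicate 2, 743 genes passed, 73 of them higher on polysomes. The median of all genes was -1.24, and -0.05 over genes with reads in every library. Gm49342, an unnamed gene model, had no reads on any VavCre-labelled polysome library, against 824 and 1117 normalized counts in the Rpl5flox/+ ones, at least 25.3-fold lower, while its cytoplasm held 1662, 2364 and 1711, against 2782, 4034 and 1904. Its call was lost with the replicate block (adjusted p = 0.526).

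The Rps19 line was used to ask which changes were shared between the lines, each taken as labelled. Each change was taken against the floxed libraries of its own line, and the 2 were subtracted. Of 10614 genes 271 (2.55%) differed with the Rpl5 line higher and 829 (7.81%) with the Rpl5 line lower (550, or 5.16%, and 1840, or 17.3%, without VavCre Rpl5flox/+ replicate 3). The median difference over all genes was -1.67. Depth ran oppositely in the 2 lines, since the VavCre Rps19flox/+ libraries held 20475572 to 33564526 reads and the Rps19flox/+ libraries 4587211 to 16065820 reads, and its part in these differences was not tested.

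Ribosomal protein mRNAs separated the lines. In the small subunit 24 of 33 genes differed with the Rpl5 line higher and none lower (median difference 1.91), and in the large subunit 25 of 48 with the Rpl5 line higher and 2 lower. Rps28 changed by 2.87 in the Rpl5 line and by -1.59 in the Rps19 line, a difference of 4.46 ± 0.37 (adjusted p = 9.43e-05), and Rplp1 by 2.44 and -1.68 (4.12 ± 0.30). Rps19 itself, at -1.04 in its own line, differed by 2.59 ± 0.30 (adjusted p = 0.000321). The nucleolar genes Ncl and Fbl differed by 4.05 ± 0.53 and 3.86 ± 0.72, and Npm1 by 2.37 ± 0.51.

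Red cell genes separated them in the other direction. In the membrane group 21 of 24 differed with the Rpl5 line lower and none higher, in late maturation 22 of 27, in heme and iron 14 of 25 (8 without Rpl5flox/+ replicate 2) and among regulators 11 of 24 (17 without VavCre Rpl5flox/+ replicate 3). Slc4a1 changed by -4.09 in the Rpl5 line and 0.12 in the Rps19 line (-4.21 ± 0.41, adjusted p = 0.000191). The 2 lines were -3.70 ± 0.47 apart for Klf1 and -3.16 ± 0.40 for Ube2c.

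Of 19 granulocyte genes 6 differed, all with the Rpl5 line higher (10 without VavCre Rpl5flox/+ replicate 3). S100a9 was 2.96 in the Rpl5 line and -4.03 in the Rps19 line (6.995 ± 0.94, adjusted p = 0.000709), S100a8 was 3.46 and -3.29 (6.75 ± 0.74), and Mpo was 4.50 and -1.40 (5.90 ± 0.69). For p53 targets the test of the difference called 2 of 37, both lower in the Rpl5 line, beside 7.81% lower of all genes. Without VavCre Rpl5flox/+ replicate 2 and 3 it called 10 and 12, all lower. Of all genes 2004 of 10539 and 1840 of 10649 were lower in those fits. Cdkn1a was 4.68 and 6.89 (-2.21 ± 0.75, adjusted p = 0.0775), Phlda3 4.96 and 5.68 (-0.72 ± 1.53, adjusted p = 0.77) and Ccng1 2.77 and 3.54 (-0.77 ± 0.84, adjusted p = 0.554), none past the threshold. The Rpl5 mRNA was at 2.73 and 0.23 (2.50 ± 1.35, adjusted p = 0.235).

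**Figure D5:**
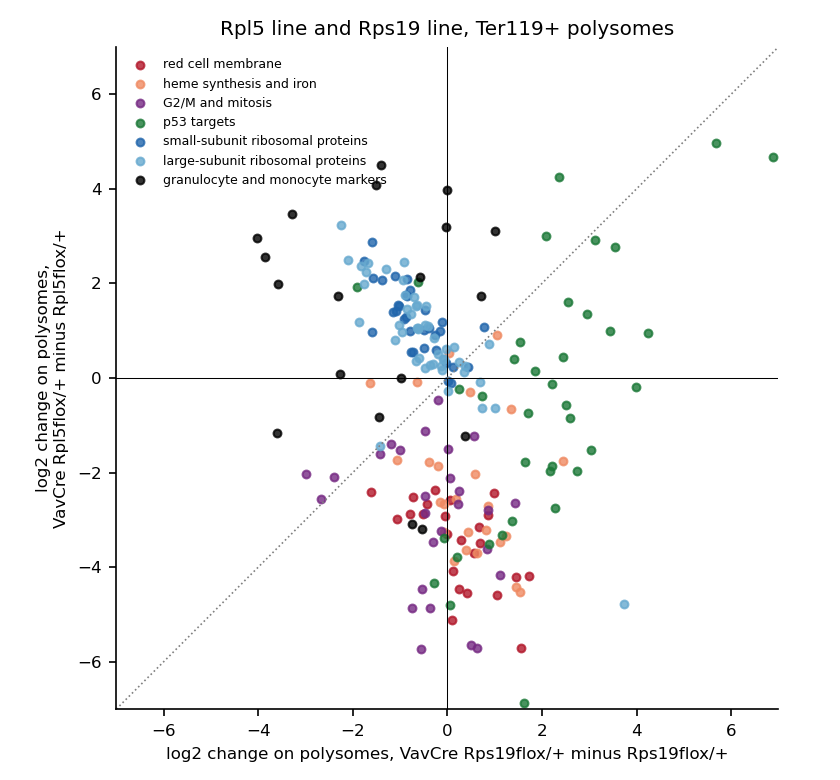
Log2 change on Ter119+ polysomes in the Rpl5 line (vertical, VavCre Rpl5flox/+ minus Rpl5flox/+) against the Rps19 line (horizontal, VavCre Rps19flox/+ minus Rps19flox/+) for members of 7 gene lists, with equal change on the dotted line. Of the small-subunit genes 28 of 33, of the large-subunit genes 37 of 48 and of the granulocyte genes 12 of 19 are positive in the Rpl5 line and negative in the Rps19 line, as are 1388 of all 10614 genes tested. Of the red cell membrane genes 15 of 24 are negative in the Rpl5 line and positive in the Rps19 line, as are 5360 of all 10614.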

How the data were processed

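Per the labels' protocols, poly(A) RNA of polysome and cytoplasm fractions was sequenced as 100 bp paired-end reads; the submitters' processing notes name mm10, and no aligner, counter or strand setting is given in the sources used here. The deposited table is of log2 values (13449 genes, 45 libraries), variance-stabilised by the authors from counts divided by 1 size factor per library, as found by inverting the values: whole reads came out for 100% of them (largest deviation 4.7e-07, tolerance 1e-06). Normalized counts are the inverted values.

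The 11 Ter119+ polysome libraries of 4 genotypes were fitted together on the log2 values by limma (version 3.58.1, R 4.3.3), using eBayes with its trend option, two-sided p-values and Benjamini-Hochberg adjustment. Genes entered if their normalized counts averaged 10 or more. The polysome minus cytoplasm test subtracted the values of libraries that share a batch label. In cytoplasm, deviations of libraries with the same replicate number correlated at 0.207, 0.388 and 0.189, so the numbers pair there; on polysomes they did not (0.0103 and -0.0183). Positions and overlaps are from RefSeq GRCm38.p6, where 10481 of the 10614 genes tested were found. Low depth limits genes with few reads. The scripts were checked on simulated data. True log2 changes of 1, 2 and 4, of either sign, were put into 71, 62 and 67 of 10217 genes. The polysome test recovered 4.2, 16.1 and 47.8% of them and the polysome minus cytoplasm test 0, 4.8 and 32.8%.

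The members and the 31 gene lists were chosen with earlier results of these data known. No gene of the snoRNA host list is in the table. Genes named are 13 fixed ones, those with the largest changes (12 in each direction, with groups not overlapping and a higher mean of at least 50) and the 4 of each list with the smallest p, less unannotated and some other genes, which are not reported here; Hbq1b, Tmod1, Slc25a37, Tfrc, Alad, Hmox1, Hmox2, Hba-x, Hbb-y, Rpl38, Rpl10, Rps27, Aen, Ptp4a3, Sesn1 and Ckap2 were chosen after their values were seen, and Rhd, Tmcc2, Kel, Cenpa and Fau by their promoters. Alternatives were log2(normalized count + 1), filters of none, 50 and 500, the Rpl5 line alone, array weights, size factors within the fraction, a replicate block, each library left out, voom on recovered reads and quantile normalization, and, chosen after seeing the data, genes with reads in every library.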

Additional observations from a re-analysis of the deposited data

Results flagged for a closer look

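The change on polysomes differed between the Rpl5 and Rps19 lines, by a test of the difference itself, for 1100 genes. Examples among the genes named above were Rps19 (2.59), Rps28 (4.46), Rplp1 (4.12), Ncl (4.05), Npm1 (2.37), Fbl (3.86), S100a8 (6.75), S100a9 (6.995) and Mpo (5.90), with the Rpl5 line higher. Those with the Rpl5 line lower were Slc4a1 (-4.21), Klf1 (-3.70) and Ube2c (-3.16). Values in parentheses are the log2 change in the Rpl5 line minus that in the Rps19 line. Polysome and cytoplasm changes differed for Gm49342, at a fitted -6.18, which is neither a measured size nor a bound, since no VavCre-labelled polysome library held a read of it, and the call was lost with the replicate block (adjusted p = 0.526).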

How the results depend on the processing

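The number of genes called on polysomes was 1406, and 569 with the Rpl5 line alone, 2638 with array weights and 900 with size factors within the fraction, an alternative that also uses log2(normalized count + 1), with which alone it was 942. Leaving out 1 library gave 423 to 2407 calls, and at least 1113 of the 1406 genes kept their call without 1 VavCre Rpl5flox/+ library and at least 422 without 1 Rpl5flox/+ library, where the lone library is assumed to vary like the other groups. For polysome minus cytoplasm the 1 call became 0 with the replicate block and was 1 to 743 with 1 library left out. Over genes with reads in every library, which leave out the called gene, it was 0. For the Rpl5 change minus the Rps19 change the 1100 calls became 3082 with array weights, 697 with size factors within the fraction (766 with its scale alone) and 422 to 2390 with 1 library left out. With the replicate block the counts were 1999 on polysomes and 2139 for the difference between lines, although the replicate numbers do not pair polysome libraries. In cytoplasm, where they do, the block gave 7424 calls, against 7160, and 7073 of the 7160 kept their call. Of 1451 values of named genes on polysomes under these alternatives 3 turned direction: under quantile normalization Hba-a1 was 0.27 and Bag1 was 0.52, and Lars2 ranged from -0.43 to 3.56 with 1 library left out. Among 302 values of the difference between lines Phlda3 ranged from -2.06 to 0.62. The causes were not tested.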

Other observations

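Lars2, which encodes the mitochondrial leucyl-tRNA synthetase, varied widely between libraries of both groups. It had 3113300, 430060 and 10898000 normalized counts in the VavCre-labelled libraries, against 3290700 and 206470 in the Rpl5flox/+ libraries, with overlapping groups (1.57 ± 1.27, adjusted p = 0.446). Its share of reads was highest, at 35.1%, in the library with the fewest reads.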
